A study of Mus musculus with 43 samples.

Results

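In the list of EKLF regions called in Nan/+ fetal liver, 2601 of 15564 regions had the minimum width of that list, overlapped no region called in wild type (WT), and lay inside a protein-coding gene longer than 100 kb. They are called narrow Nan-only regions here, and genes above 100 kb long genes. The regions were chosen by their calls in both lists: the minimum width, which was 1 bp above the peak size of 175 bp set for calling, no shared base with a WT region, a centre more than 1 kb from every protein-coding gene end, and a longest surrounding gene above 100 kb in the RefSeq table of the mm10 assembly. Width, absence from the WT list, gene length and the distance from gene ends are therefore part of the definition and not results.

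The series profiled livers of mouse embryos at E13.5 that were Nan/+, heterozygous for the Nan allele of Klf1, or their WT littermates of the Nan strain, in 43 samples. EKLF was immunoprecipitated from crosslinked cells with the antibody 7B2a after digestion with micrococcal nuclease and sonication, in 3 libraries per genotype. The labels name the cells primary erythroid, and the protocol describes whole dispersed livers without naming a sort. Region lists hold no transcript levels, so the cell type was not checked against markers. Nan/+ cells keep a WT Klf1 allele, and the lists do not tell which form of the protein was precipitated.

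EKLF, also called KLF1, is a zinc-finger transcription factor of red cell precursors that binds CACCC and related GC-rich boxes and activates globin, heme, membrane and cell cycle genes. The Nan allele changes an amino acid in the zinc fingers that read this box. In the literature the altered protein reads a changed set of sites, and Nan/+ mice have a lifelong anaemia.

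Each genotype was represented by 1 list made from its 3 ChIP libraries, which held 72023512 to 100763687 tags in Nan/+ and 74140385 to 103170594 tags in WT. The lists hold positions alone. Neither a strength nor a replicate value accompanies a region, and with no replicate error to set differences against, none of those below was tested. Intervals at the 95% level are exact binomial for shares and exact Poisson for densities. They cover counting error only, and they are too narrow where several regions share a gene. The Nan/+ list was called with a peak size of 175 bp and the WT list with 125 bp, so genotype and calling settings cannot be told apart. A region absent from the WT list can also lie just below the calling threshold there.

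No sequence of the whole set was used here, but a few narrow Nan-only regions fell in windows around transcription starts inside their host genes, for which RefSeq promoter sequence of GRCm38.p6 (the assembly of mm10) was at hand. The sequences below are shown because they are the bases that the regions covered. The first 4 regions lay wholly inside such a window, and for Kdm2b the covered part is given. Each is written 5′ to 3′ on the strand of the gene, and capitals mark every match to CCNCNCCC, a form of the EKLF box, on either strand.
Abl1 (chr2:31759771-31759946, plus strand): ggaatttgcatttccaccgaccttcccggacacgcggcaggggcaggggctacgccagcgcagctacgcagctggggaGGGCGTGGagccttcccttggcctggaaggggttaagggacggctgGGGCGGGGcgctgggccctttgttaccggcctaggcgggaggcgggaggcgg
Rnf144b (chr13:47193859-47194034, plus strand): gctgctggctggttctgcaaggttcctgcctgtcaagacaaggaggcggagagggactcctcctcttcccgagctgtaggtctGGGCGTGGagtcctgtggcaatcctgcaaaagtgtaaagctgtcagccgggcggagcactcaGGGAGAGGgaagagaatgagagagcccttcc
Palld (chr8:61591199-61591374, minus strand): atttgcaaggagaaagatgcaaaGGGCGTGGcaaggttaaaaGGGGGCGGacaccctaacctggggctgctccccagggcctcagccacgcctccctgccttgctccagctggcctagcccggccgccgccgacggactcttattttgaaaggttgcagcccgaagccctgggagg
Ptpn3 (chr4:57301814-57301989, minus strand): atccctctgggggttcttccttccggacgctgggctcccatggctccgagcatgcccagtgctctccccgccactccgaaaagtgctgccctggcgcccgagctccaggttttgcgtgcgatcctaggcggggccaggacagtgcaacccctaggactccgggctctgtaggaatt
Kdm2b (chr5:122900301-122900429, minus strand): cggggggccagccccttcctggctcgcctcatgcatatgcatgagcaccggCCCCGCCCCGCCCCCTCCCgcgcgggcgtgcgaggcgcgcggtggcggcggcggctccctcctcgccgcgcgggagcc

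The starts belonged to Abl1, which encodes a tyrosine kinase, Rnf144b, an E3 ubiquitin ligase, Palld, which encodes the actin-binding protein palladin, Ptpn3, a protein tyrosine phosphatase, and Kdm2b, a histone demethylase. Region centres lay at -80 bp from the start in Abl1, -56 bp in Rnf144b, -148 bp in Palld and -64 bp in Ptpn3, and at 8 bp in Kdm2b. These were internal starts, 71.6 kb, 71.2 kb, 311 kb, 37.1 kb and 88.9 kb from the 5′ end of the gene in that order. The covered bases held 2 matches to CCNCNCCC in Abl1, 2 in Rnf144b, 2 in Palld and 4 overlapping ones in Kdm2b, and 0 in Ptpn3. Of the matches in Abl1, Rnf144b and Palld, 1 each read CCACGCCC on the strand opposite to the gene, which is GGGCGTGG as printed. In the first 4 regions G and C made up 70.5%, 59.7%, 63.1% and 64.8% of the bases, against 53.9% over all listed windows.

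In all, 14 narrow Nan-only regions touched a listed window of 300 bases, 10 of them at a start of the host gene itself and 4 at a start of a long noncoding RNA. The other host genes with an own internal start were Snx13, Clasp2, Disp1, Lin28b and Sptbn1. The covered bases there, 34 in Sptbn1 to 118 in Snx13, held 0 matches to CCNCNCCC. At the long noncoding RNA starts, inside Ubash3b, Sdk2, Galnt10 and Ano6, the covered bases held 2, 0, 0 and 0. Lin28b encodes an RNA-binding protein that blocks let-7 processing in fetal cells. The 16 windows touched held CCNCNCCC in 10 cases (62.5%), against 49.8% of all 32585 windows, and CCNCGCCC in 7 cases (43.8%), against 24.1%. CCACGCCC was found in 3 of the 16 (18.8%), against 5.36% of all windows, CCACACCC in 1 (6.25%) against 3.57%, and the GATA factor word GATAA in 2 (12.5%) against 25.4%. Both strands were searched, and every CCACACCC, CCACGCCC and CCNCGCCC is also a CCNCNCCC. The windows repeat in part, since the regions in Abl1 and Kdm2b each touched 2 overlapping windows. Counted by region, a touched window held CCNCNCCC for 8 of 14 and CCNCGCCC for 5 of 14. These counts are of whole windows and not of the bases that the regions covered. The window with CCACACCC was touched by 4 bases of a region in Ano6. With so few regions, some touching a window by a few bases, these shares are a description.

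All classes compared in this paragraph leave out centres within 1 kb of a protein-coding gene end, so starts at such ends could not count. Placement at the remaining listed starts was rare among narrow Nan-only regions. Of 2086 of them in genes with a listed start, 43 (2.06%, interval 1.496 to 2.767) had their centre within 1 kb of any listed start. The share was 3.29% (2.36 to 4.46) among wider Nan-only regions of long genes, 7.64% (5.98 to 9.59) among WT-only regions and 33.6% (25.7 to 42.1) among Nan/+ regions shared with WT. Positions laid every 10 kb through the long genes gave 0.910%. The share was 2.56% (0.532 to 7.31), or 3 of 117, among WT-only regions no wider than a narrow Nan-only region. Among WT-only regions of the minimum width, 126 bp, it was 0 of 48 (0 to 7.40). Both of these WT-only classes hold few regions, and none of the differences in this paragraph was tested.

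The narrow Nan-only regions spread over 1039 of 2425 long genes, which is 42.8% of them (interval 40.9 to 44.8). This share is the background for each gene list below. A single narrow region was found in 499 host genes (48.0%), 2 in 222 and 5 or more in 135 (13.0%). These 135 genes held 1042 of the regions, or 40.1%. The median host had 2, and Sox6 had 26, the highest count.

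Sox6 encodes a repressor that silences embryonic globin genes together with BCL11A. Its 26 narrow Nan-only regions spanned 508 kb, or 89.1% of the gene (chromosome 7, 115470872 to 116040776). The gene also held 16 wider Nan-only regions, 3 Nan/+ regions shared with WT and 23 WT regions. Of the narrow regions 15 lay within 10 kb of a WT region, the closest at 0.570 kb. The nearest pair of its narrow regions, at 115528474 to 115528649 and 115530422 to 115530597, had centres 1948 bp apart.

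The 12 genes that led by count of narrow Nan-only regions encode proteins of varied function. The last place was shared by 5 genes with 12 regions each, of which Pan3 is given because ties were ordered by regions per 100 kb. Dennd1a, which encodes an exchange factor for the GTPase RAB35, had 19 narrow regions and 4 WT regions in 488 kb. Asap1, a GTPase-activating protein for ARF proteins, had 17 and 4 in 296 kb, and Pde4d, a cyclic AMP phosphodiesterase, had 17 and 6 in 1302 kb. Cmip, an adaptor protein, had 16 narrow and 29 wider Nan-only regions beside 9 WT regions. Chchd3, a subunit of the mitochondrial cristae complex, had 16 narrow regions and 5 WT regions. Ankrd11, a chromatin coregulator, had 15 and 4, Stag1, a cohesin subunit, had 15 and 4, and Mad1l1, a spindle checkpoint protein, had 15 and 1. Fars2, the mitochondrial phenylalanine tRNA synthetase, had 15 narrow and 17 wider Nan-only regions and 9 WT regions. Gse1 differed from most others in holding more wider than narrow regions, 32 against 13, and 26 WT regions. Pan3, a subunit of a poly(A) nuclease, had 12 narrow regions and 4 WT regions in 122 kb.

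**Figure D1:**
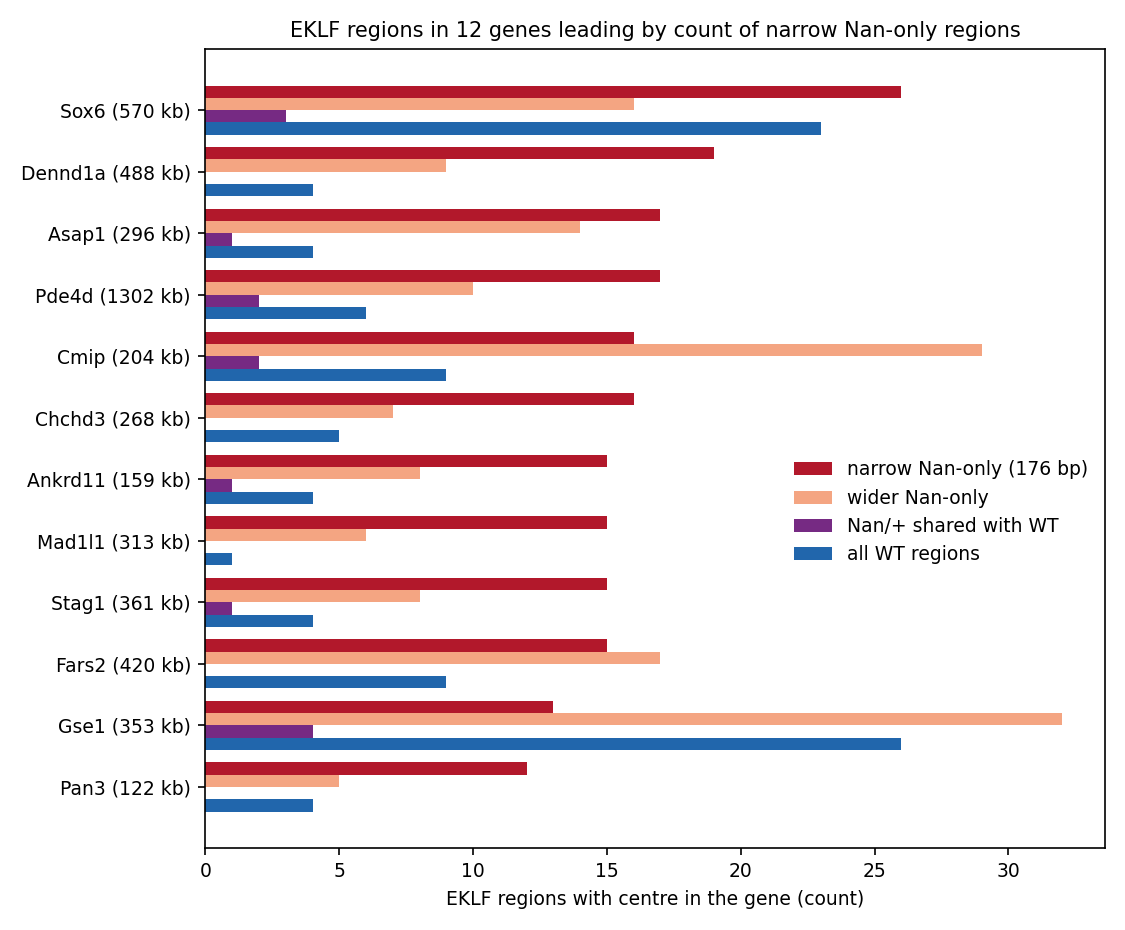
Count of EKLF regions in 12 long genes leading by count of narrow Nan-only regions, with Pan3 taken by density from 5 genes tied at 12: narrow Nan-only, wider Nan-only and Nan/+ regions shared with WT (all more than 1 kb from gene ends), and all WT regions in the gene body. Narrow Nan-only regions ran from 12 in Pan3 to 26 in Sox6, and Gse1 had 13 beside 26 WT regions. The genes were chosen by their count of narrow Nan-only regions, and the lists were called with different peak sizes. The bars are therefore not compared between genotypes.

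Scaled to length, among genes with at least 3 narrow regions, Pan3 stood first with 9.81 narrow regions per 100 kb, followed by Ankrd11 with 9.44. Wnk1, a kinase that controls chloride cotransporters, had 7.84, Cmip 7.82, Fam126a, which encodes hyccin, 7.80, and Hace1, a ubiquitin ligase, 7.43. The outermost narrow regions spanned 46.1% of Pan3, 96.6% of Ankrd11 and 94.2% of Wnk1.

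The number of narrow regions did not scale with gene length. Density was 6.94 per Mb (6.58 to 7.32) in genes of 100 to 200 kb, 4.22 per Mb (3.96 to 4.49) in genes of 200 to 500 kb and 1.33 per Mb (1.17 to 1.51) in genes above 500 kb. The share of genes with at least 1 narrow region was nearly level, at 42.9% of 1435, 42.1% of 763 and 44.9% of 227 genes. Host genes had a median length of 171 kb and the other long genes 172 kb. Wider Nan-only regions thinned out too, at 4.22, 2.51 and 0.550 per Mb over the same classes, as did WT-only regions, at 3.40, 1.54 and 0.518 per Mb. Over the classes narrow regions were thus 1369, 975 and 257, beside 833, 579 and 106 wider ones.

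**Figure D2:**
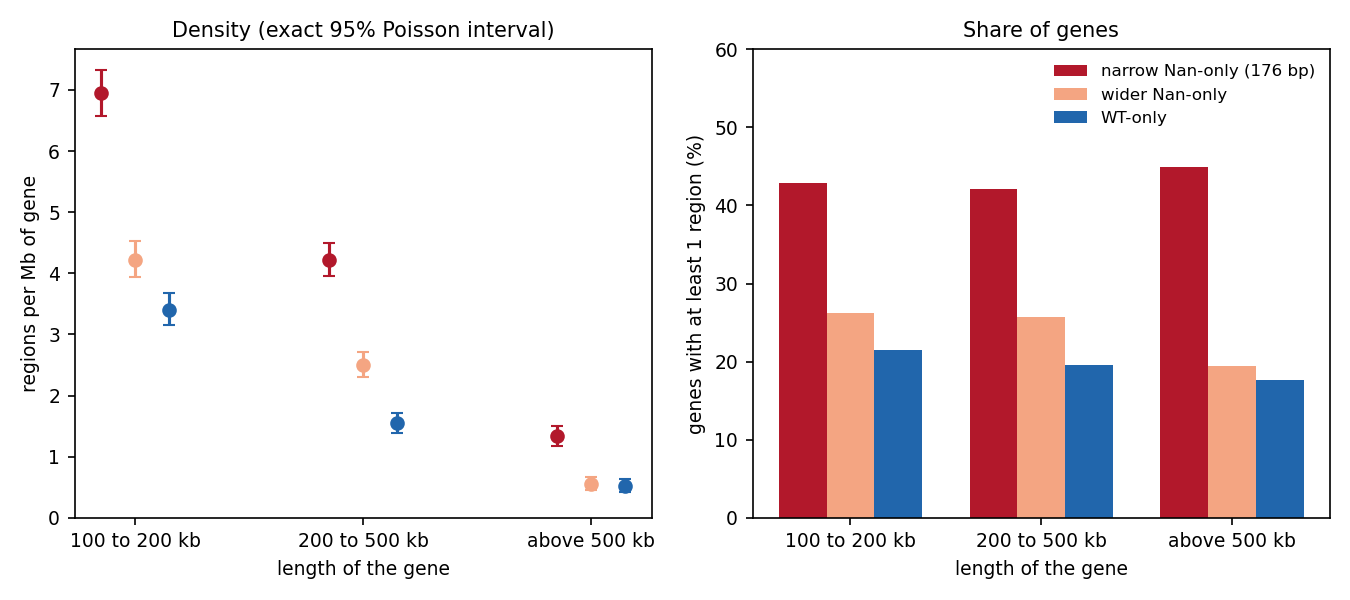
Left, regions per Mb of gene by gene length class for narrow Nan-only, wider Nan-only and WT-only regions, points with exact 95% Poisson intervals. Right, the share of genes with at least 1 such region. Density of narrow Nan-only regions was 6.94, 4.22 and 1.33 per Mb, while the share of genes with at least 1 was 42.9%, 42.1% and 44.9%.

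Genes with narrow Nan-only regions were mostly genes that EKLF regions marked in other ways as well. A WT region lay in the body of 497 of the 1039 host genes (47.8%, interval 44.8 to 50.9), against 160 of 1386 other long genes (11.5%, 9.91 to 13.3), the background being 27.1% of all long genes. Seen from the other side, 75.6% of the 657 long genes with a WT region held a narrow Nan-only region, against 30.7% of the 1768 without. Density was 11.04 narrow regions per Mb in the genes with a WT region and 1.92 in the genes without. A wider Nan-only region lay in 47.3% of host genes and in 9.09% of the other long genes. A Nan/+ region stood within 1 kb of a gene end in 25.7% of host genes and in 7.94% of the others, and a WT region in 27.5% and 7.14%. Over the 2425 long genes the count of narrow regions had a rank correlation of 0.542 with the count of wider Nan-only regions, from the same libraries, and of 0.499 with that of WT regions. Both are descriptions over genes, which are not replicates.

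Some host genes had narrow Nan-only regions and no WT region nearby. No WT region lay in the body or within 10 kb of 462 host genes (44.5%), against 66.1% of all long genes, so that this was less common among hosts than over all long genes. Of the 462, 11 held 5 or more narrow regions. The genes named next were chosen after their values were seen. Rbms1, which encodes an RNA-binding protein, and Ptk2, the focal adhesion kinase, had 8 each, at 501 kb or more and 29.9 kb or more from a WT region. Mnat1, a subunit of the CDK-activating kinase, had 7, at 344 kb or more. Gng2, a G protein gamma subunit, had 6 narrow and 18 wider Nan-only regions in 105 kb, at a median of 171 kb from any WT region. Tbl1x, a subunit of the NCoR corepressor complex, had 6 at 1188 kb or more from a WT region, and Frmd5 also had 6. In 353 host genes (34.0%) the narrow regions were the only EKLF regions of either list in the gene body.

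Distances to WT regions varied widely. The median from the centre of a narrow Nan-only region to the nearest WT region was 50.9 kb (quartiles 15.6 and 147 kb). Within 10 kb of a WT region lay 478 of the 2601, or 18.4% (16.9 to 19.9), and 880 (33.8%) lay more than 100 kb from any. Wider Nan-only regions of long genes were nearer, with 28.1% (25.8 to 30.4) within 10 kb and a median of 28.8 kb. Narrow Nan-only regions in genes of up to 100 kb had 29.4% (27.6 to 31.3) within 10 kb and a median of 21.8 kb. Positions every 10 kb through the host genes had 6.91% within 10 kb and a median of 194 kb, so the narrow regions lay closer to WT regions than evenly laid positions of the same genes. Evenly laid positions follow gene length, so the longest hosts weigh most in that comparison.

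**Figure D3:**
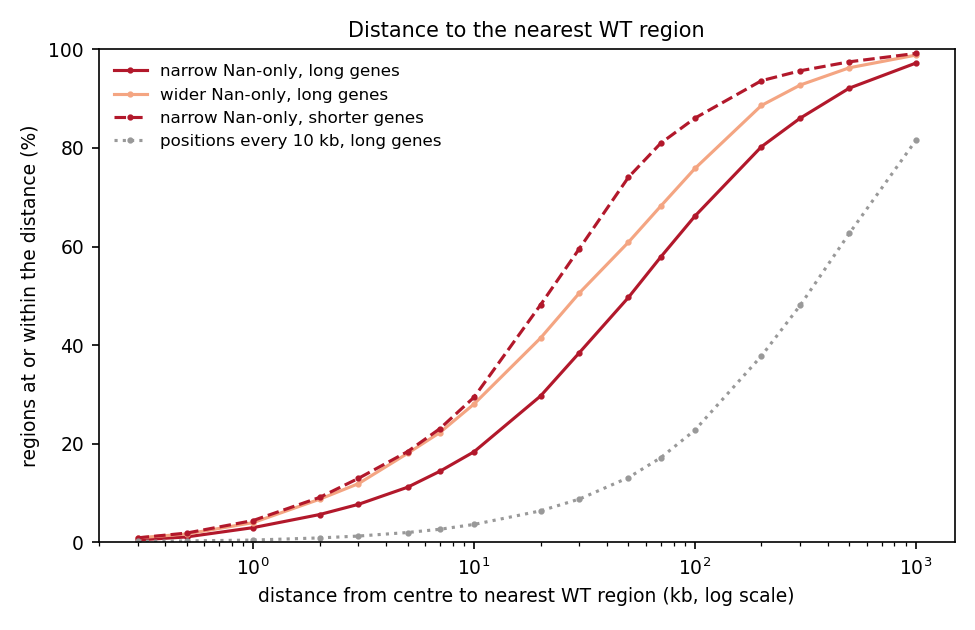
Cumulative share of regions by distance from the centre to the nearest WT region (kb, log scale) for narrow and wider Nan-only regions of long genes, narrow Nan-only regions of shorter genes and positions laid every 10 kb through long genes. At 10 kb the shares were 18.4%, 28.1%, 29.4% and 3.65%.

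Spacing between narrow Nan-only regions is given as a description, with no other class of regions or positions beside it. The nearest other narrow region stood at a median of 24.1 kb between centres (quartiles 8.05 and 96.9 kb), and 778 (29.9%) had such a neighbour within 10 kb. With Nan/+ regions of any width the median was 12.9 kb and 44.4% had a neighbour within 10 kb. The closest pairs had centres 301 bp apart in Cux1, which encodes a homeodomain factor (chromosome 5, 136551668 to 136551843 and 136551969 to 136552144), and 318 bp apart in Carmil1, a regulator of actin capping (chromosome 13, 24182975 to 24183150 and 24183293 to 24183468). In Dennd1a the closest pair was 379 bp apart, in Asap1 405 bp and in Chchd3 442 bp. The minimum distance set for calling this list was 300 bp.

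Within the gene, narrow Nan-only regions were spread almost evenly. For 2086 regions the strand of the host was known, and 20.2% (18.5 to 22.0) lay in the first 20% of the gene and 17.9% in the last 20%. Positions every 10 kb gave 19.7% in each. WT-only regions leaned to the 5′ side, with 26.0% (23.1 to 29.0) in the first 20% and 14.8% in the last, and Nan/+ regions shared with WT more so, with 35.8% (27.8 to 44.4) and 11.7%. WT-only regions no wider than a narrow Nan-only region had 18.8% (12.2 to 27.1) of 117 in the first 20% and 16.2% in the last. This class was chosen after seeing the data, and its interval also holds the 26.0% of all WT-only regions. It therefore cannot tell an even spread from a lean to the 5′ side. WT-only regions of the minimum width, 126 bp, had 22.9% of 48 in the first 20% and 8.33% in the last, again from few regions. Wider Nan-only regions gave 20.8% and 15.8%, and narrow Nan-only regions of shorter genes 18.2% and 16.5%. The median distance to the nearer gene end was 26.4% of gene length for narrow Nan-only regions (25.4 to 27.4) and 25.2% for evenly laid positions.

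**Figure D4:**
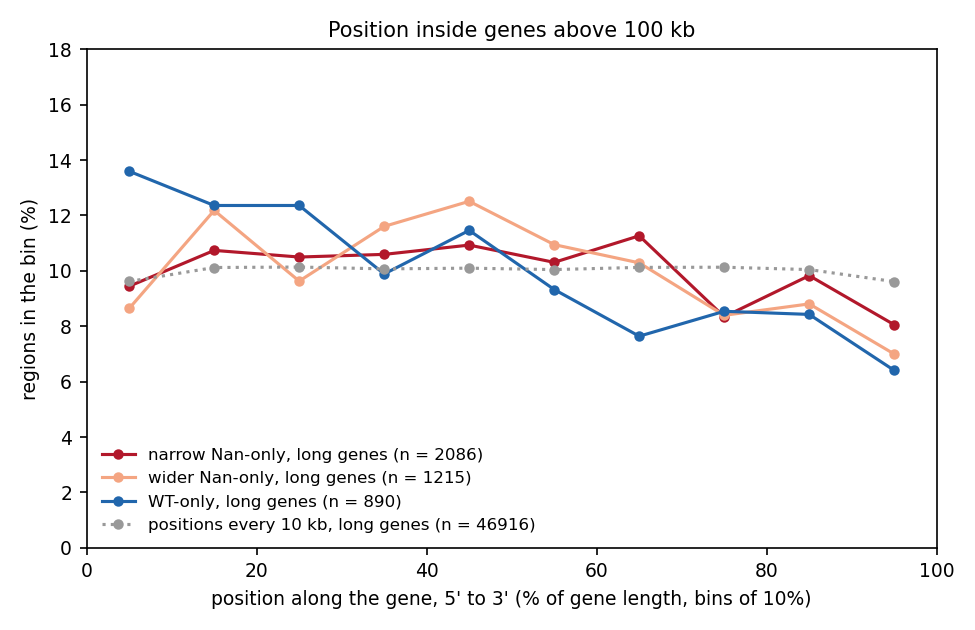
Share of regions in each 10% bin of gene length from the 5′ to the 3′ end, for narrow Nan-only, wider Nan-only and WT-only regions and for positions laid every 10 kb in long genes with a known strand. Narrow Nan-only regions kept between 8.05% and 11.3% per bin, and WT-only regions had 13.6% in the first bin and 6.40% in the last.

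Groups of long genes were compared by fixed lists, which were drawn up with earlier results of these data known and are given as counts beside the background of 42.8%. Chromatin and coregulator genes had a narrow Nan-only region in 34 of 40 long genes (85.0%, interval 70.2 to 94.3), with 12.5 per Mb. Kmt2c, a histone H3 lysine 4 methyltransferase, had 11 narrow and 11 wider Nan-only regions and 0 WT regions in 227 kb. Arid1b, a BAF remodeller subunit, had 11 narrow regions and 16 WT regions.

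Haematopoietic transcription regulators had a narrow region in 22 of 34 long genes (64.7%, 46.5 to 80.3), at 10.8 per Mb. After Sox6 the highest counts were 10 in Rere, a nuclear receptor coregulator, and 9 in Mllt10, a partner of the methyltransferase DOT1L, against 4 and 6 WT regions. Tcf12, which encodes an E protein, also had 9, against 2 WT regions. Red cell membrane, cytoskeleton and enucleation genes had one in 9 of 14 (64.3%, 35.1 to 87.2), and their density of 16.8 per Mb was the highest of the lists given here. The density of WT-only regions in this list, 21.4 per Mb, was also the highest of the lists given here. Ank1, which encodes the red cell ankyrin, had 9 narrow, 10 wider and 6 shared Nan/+ regions and 32 WT regions. Epb41, encoding protein 4.1, had 8 narrow regions, all 8 within 10 kb of a WT region, and 16 WT regions. Slc16a10, an aromatic amino acid transporter, had 8 narrow and 8 WT regions.

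Autophagy, ubiquitin and organelle genes had a narrow region in 33 of 44 (75%, 59.7 to 86.8), at 9.86 per Mb. Vps13b, a Golgi lipid transfer protein, had 10, Usp32, a deubiquitinase, 8 and Cog5, a Golgi tether subunit, 8, against 9, 12 and 1 WT regions. Cytokine receptor and kinase signalling genes stood at 14 of 27 (51.9%, 31.9 to 71.3) and 5.50 per Mb, an interval that spans the background. Igf1r, the IGF1 receptor, had 6, Ptprj, a receptor phosphatase, 4 and the adaptor Gab1 3, against 3, 0 and 1 WT regions. Prkca, a protein kinase C gene, tied with Gab1 at 3.

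Synaptic and neuronal adhesion genes, the longest list with a median length of 1098 kb, had a narrow region in 25 of 60 (41.7%, 29.1 to 55.1), close to the background. Their density was 0.563 per Mb (0.399 to 0.773), below the 1.33 per Mb of all genes above 500 kb. Cacna1c, a calcium channel subunit, had 3 in 610 kb, and 11 genes, Rbfox3 and Magi1 among them, had 2 each. Dmd, at 2390 kb, and Lsamp, at 2197 kb, were the longest genes with 0, and each had 0 regions in both lists. Genes at common fragile sites, of which several are also in other lists, had one in 20 of 29 (69.0%, 49.2 to 84.7), at 2.26 per Mb. Mad1l1 and Rad51b, a homologous recombination protein, led this list with 15 and 12 narrow regions, against 1 and 2 WT regions. Of the 7 lists given here 6 had shares above 42.8%, though the intervals of the cytokine and red cell membrane lists span it, and the lists differ in gene length and in the share of genes with a WT region (16.7% of the synaptic list and 71.4% of the red cell membrane list, against 27.1% of all long genes).

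**Figure D5:**
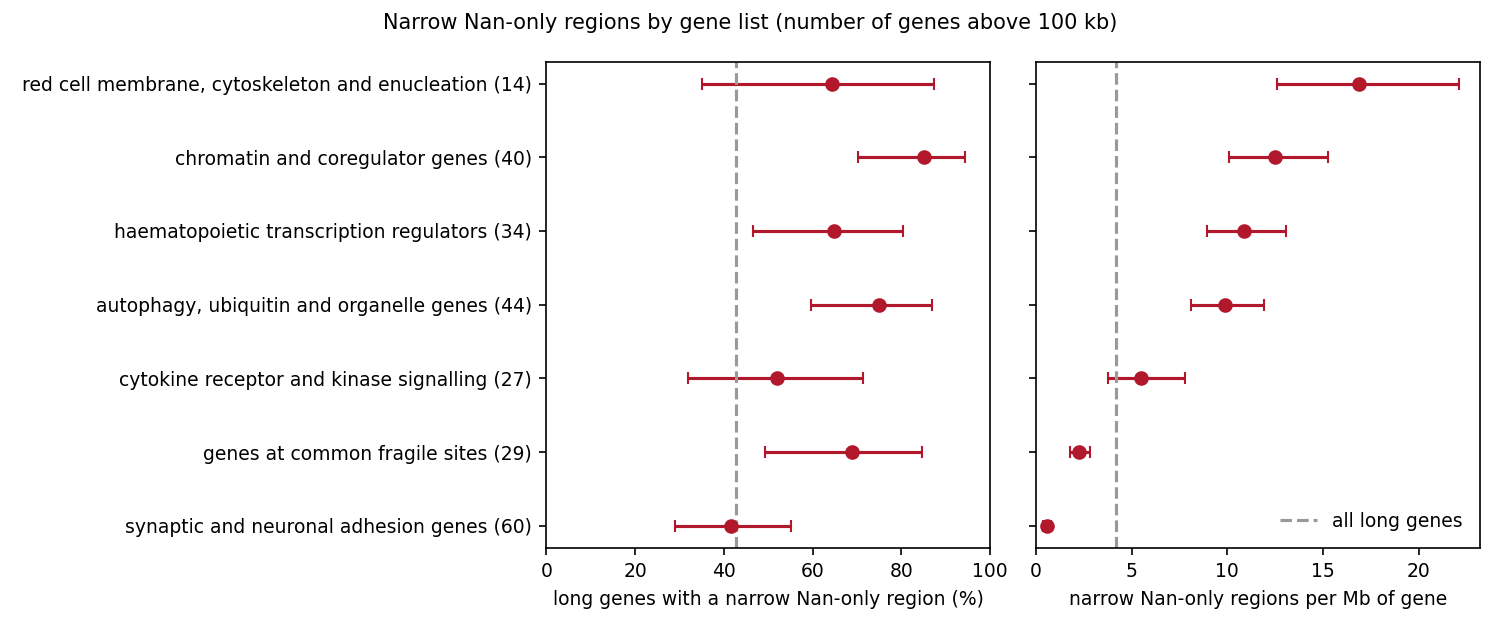
Left, share of long genes of each of the 7 lists with at least 1 narrow Nan-only region, with exact 95% binomial intervals. Right, narrow Nan-only regions per Mb of gene with exact 95% Poisson intervals, with dashed lines at the values of all long genes (42.8% and 4.19 per Mb). Density ran from 0.563 per Mb in the synaptic list to 16.8 per Mb in the red cell membrane list.

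Chromosomes differed in density. Chromosome 19 had 7.47 narrow Nan-only regions per Mb of long gene (6.15 to 8.98), chromosome 11 had 6.63 and chromosome 13 had 6.42. The lowest were chromosome 3 with 2.18 (1.70 to 2.76) and chromosome X with 2.29 (1.77 to 2.91), around a median of 4.17 over chromosomes. WT-only regions per Mb stood at 2.58 on chromosome 19, 2.73 on chromosome 11, 1.33 on chromosome 3 and 0.717 on X. The labels used here do not give the sex of the embryos, and its part in the X value was not tested.

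The same rule turned round, for WT-only regions of 126 bp, the minimum of the WT list, found 59 regions in 57 long genes. Of these genes 46 also held a narrow Nan-only region, which is 4.43% of the narrow Nan-only hosts, against 2.35% of all long genes with such a WT-only region. It is 80.7% of these genes, against the 42.8% of all long genes with a narrow Nan-only region. WT-only regions of any width lay in 497 long genes, of which 390 were hosts of narrow Nan-only regions, 37.5% of the narrow Nan-only hosts and 78.5% of the WT-only hosts. Over all long genes, 20.5% held a WT-only region and 42.8% a narrow Nan-only region. Since the lists were called with different peak sizes, the counts of narrow regions are not compared between genotypes.

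Narrow calls made up 63.1% (61.7 to 64.6) of the Nan-only regions inside long genes and 61.8% (60.2 to 63.3) of those inside shorter genes. The share was 69.7% outside genes, 40.7% within 1 kb of gene ends and 24.3% among Nan/+ regions of long genes shared with WT. Near the limits of the definition, the next width in the Nan/+ list was 219 bp, as in a region of Prim2. Host genes just above 100 kb were Tut4 (100006 bp), Abi1 (100169 bp) and Ndufs4 (100300 bp), and just below it stood Arsg (99998 bp), Vmp1 (99979 bp) and Wipf1 (99878 bp). The narrow regions nearest to a gene end lay 1041 bp from it in Atxn2, 1056 bp in Ammecr1 and 1062 bp in Snx13, and those left out 994 bp in Phtf2, 983 bp in Myo5a and 958 bp in Mical3. Gaps to a WT region were 4 bp in Herc1, 12 bp in Cab39l and 47 bp in Cabin1, while regions left out overlapped one by 16 bp in St3gal3, 27 bp in Pip5k1b and 40 bp in Ldlrad4.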

How the data were processed

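EKLF ChIP was analysed from 2 region lists, 1 for Nan/+ and 1 for WT, each deposited as BED positions. Per the file headers, the authors called regions with HOMER on mm10 from 3 ChIP libraries per genotype against 2 distinct inputs (85114268 and 97613537 tags in Nan/+, 81522594 and 115944854 in WT). Per the file headers, the authors' limits in both lists were a fold of 4 over input at a q of 0.01, then DESeq2 at an FDR of 0.01 with a log2 fold of at least 2. Peak size and minimum distance were 175 and 300 bp in Nan/+, and 125 and 250 bp in WT; the file label of the Nan/+ list names the WT settings, but its header and its minimum width, 1 bp above, give 175 bp. Bowtie2 2.1, SAMtools 1.1, deepTools 3.5 and bcl2fastq 2.17 are named in the submitters' processing notes. In the deposited lists every region carries a score of 1, so the score ranks nothing. CBP, H3K27ac, RNA polymerase II and ATAC samples were not used here.

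Genes came from the RefSeq table of GRCm38.p6; 379 of 21900 protein-coding genes, on Y, the mitochondrial chromosome, unplaced sequence or alternate loci, were left out. Regions on the mitochondrial chromosome and unplaced sequence were left out. Strand and listed starts came from the RefSeq promoter table, which covered 1864 of 2425 long genes and 812 of 1039 hosts. Positions are printed counted from 1. Shares, medians and densities were computed with Python 3.11.15, pandas 2.3.3 and scipy 1.17.1, and the membership rule was checked on simulated regions. The members and gene lists were chosen with earlier results of these data known. Named genes were those with the most members, the most per 100 kb and the leaders of each list; regions, the closest pairs; ties were ordered by members per 100 kb. Tcf12 and Prkca, named for ties, and the genes marked so in the text were chosen after their values were seen. Motif shares over all members, planned for a full genome sequence, were not analysed here. The result of 1 further gene list is not reported here.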

Additional observations from a re-analysis of the deposited data

How the results depend on the processing

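No paired analysis was possible because the 3 libraries of a genotype were merged into 1 list before deposit; for the same reason no replicate could be left out. Of 48 alternative values, 39 stayed within 1.5 times for counts or within the 95% interval for shares, medians and densities, and 9 did not. With genes above 50 kb the host genes numbered 1823 and were 37.0% of such genes. With genes above 200 kb there were 1232 regions in 423 hosts. Fewer or more genes enter these by construction. A WT region lay within 50 kb of 49.7% of the narrow Nan-only regions, and within 10 kb of 15.4% once those at 1 kb or less from a WT region were left out, a setting chosen after seeing the data. With 10 kb flanks 55.5% of host genes held a WT region. The spacing was 12.9 kb to Nan/+ regions of any width. WT-only regions of long genes that were no wider than a narrow Nan-only region numbered 142, also chosen after seeing the data. A stricter peak strength was not run, since all scores are equal. Tags per region were not used here, so weak and absent binding in WT cannot be told apart.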

Other observations

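Of the 2601 narrow Nan-only regions, 139 (5.34%) also had their centre inside a long noncoding RNA gene. A single region covered a mature microRNA: in Gse1, the region at chromosome 8, 120538722 to 120538897, held all 21 bases of mmu-miR-7687-3p, at 120538734 to 120538754. Its RefSeq sequence is shown because it is the microRNA that a narrow region covered, with the seed in capitals.
mmu-miR-7687-3p: cCACUCAGucgccccgccaca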
